A study of Homo sapiens with 2 samples.

Results

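The genes described here are 8 transcription factors of the hepatocyte lineage, FOXA1, FOXA2, FOXA3, CEBPA, ONECUT1, ONECUT2, PROX1 and GATA4. They were measured in HepG2, an established human liver cancer cell line that keeps many hepatocyte functions. Cells received either the solvent dimethyl sulfoxide (DMSO) or hawk tea extract (HTE), an ethanol extract of hawk tea leaves re-dissolved in DMSO, for 24 h. The sample labels give an HTE dose of 200 μg/mL, whereas the name given to the array scan and the study's text have 300 μg/mL. Each condition was profiled on 1 Agilent 1-colour array, and both arrays lay on the same slide. All probes other than array controls whose RefSeq transcript belongs to 1 of the 8 genes were used, which gave 10 probes on 19 spots, out of 50599 probes on 58717 spots. GATA4 had 3 probes, and the other genes had 1 each. There are no replicates, so no p value or error between cultures can be given, and array and treatment cannot be told apart.

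Hepatocyte identity rests on a small set of factors that bind the same regulatory regions and each other's genes. The FOXA proteins are pioneer factors that bind their sites in closed chromatin, and in the embryo they prepare liver genes for activation together with GATA4. ONECUT1 and ONECUT2 act in liver and bile duct development, PROX1 is needed for hepatoblasts to migrate out of the liver bud, and CEBPA drives metabolic genes of the mature hepatocyte and restrains proliferation. Such factors are studied in HepG2 because many of the liver genes they control are active in these cells.

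The following sequences are the 250 bases before the annotated start of CEBPA, FOXA1 and ONECUT1, whose signals were all lower on the HTE array, and of ONECUT2, the paralog of ONECUT1 whose signal was higher. They come from RefSeq on GRCh38.p14, whose promoter table held 5 of the 8 genes, FOXA3 being the fifth, and are written 5′ to 3′ and end at the base before the start. Capitals mark matches, on either strand, to the GC box GGGCGG, the TATA box TATAAA, the CCAAT box CCAAT or a forkhead motif TNTTTAC, and no match overlaps another.
CEBPA, chr19:33302535-33302784, - strand: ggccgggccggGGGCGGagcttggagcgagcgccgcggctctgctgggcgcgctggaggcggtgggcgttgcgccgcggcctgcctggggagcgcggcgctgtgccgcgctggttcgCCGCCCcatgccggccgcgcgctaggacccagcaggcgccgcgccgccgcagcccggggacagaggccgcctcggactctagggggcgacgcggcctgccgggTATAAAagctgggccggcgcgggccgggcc
FOXA1, chr14:37595250-37595499, - strand: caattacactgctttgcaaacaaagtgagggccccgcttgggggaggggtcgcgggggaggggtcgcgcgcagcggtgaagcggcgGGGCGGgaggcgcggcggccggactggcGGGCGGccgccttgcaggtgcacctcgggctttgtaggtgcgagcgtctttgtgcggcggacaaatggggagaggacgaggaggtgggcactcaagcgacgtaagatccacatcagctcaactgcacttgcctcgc
ONECUT1, chr15:52790337-52790586, - strand: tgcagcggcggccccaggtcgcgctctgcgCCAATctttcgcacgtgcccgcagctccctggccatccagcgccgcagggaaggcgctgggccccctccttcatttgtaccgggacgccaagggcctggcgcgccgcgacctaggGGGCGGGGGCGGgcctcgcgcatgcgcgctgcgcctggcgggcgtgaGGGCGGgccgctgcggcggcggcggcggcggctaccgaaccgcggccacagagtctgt
ONECUT2, chr18:57435124-57435373, + strand: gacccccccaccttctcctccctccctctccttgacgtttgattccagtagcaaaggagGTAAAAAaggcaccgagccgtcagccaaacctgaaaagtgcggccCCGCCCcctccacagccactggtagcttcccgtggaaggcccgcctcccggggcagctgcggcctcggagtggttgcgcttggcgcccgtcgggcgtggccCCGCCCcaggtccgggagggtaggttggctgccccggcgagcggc

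All 5 windows held at least 2 GC boxes. A GC box, at any count, was found in 42.6% of the 35116 promoter windows of the same length in the table, and the share with at least 2 was not computed. Their GC content ran from 67.2% for FOXA1 to 81.2% for CEBPA, against a median of 58.0% over all windows. TATAAA lay 30 bases before the start in both CEBPA and FOXA3, and 3763 of all windows held it. ONECUT1 alone of the 5 held CCAAT (11240 of all windows), and ONECUT2 alone held the forkhead letters (9.58%), as GTAAAAA on the strand shown. Matches to AGATAA for GATA factors, ATNGAT for Onecut factors and TTGCNNAA for C/EBP factors were searched too, and these letters were in none of the 5 windows (9.17%, 15.0% and 9.05% of all windows). All 5 windows thus shared GC boxes. The FOXA1 window held none of the other motifs, so the windows of the genes with lower signal, FOXA3 among them, had no other motif in common. None of this was tested.

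The value of a spot is its processed signal, a background-subtracted intensity. For the ratio of HTE over DMSO, the log2 signal was scaled by subtracting each array's 75th percentile, a signal of 4020.0 on the DMSO array and 3570.3 on the HTE array, so that a log2 ratio of 0 means no change relative to that percentile. All 19 spots were well above background on both arrays, none was saturated and none carried an outlier flag. Among the 688 probes with at least 5 usable spots, the SD of the log2 ratio between spots of a probe had a median of 0.05 and a 95th percentile of 0.15. The scanner software gives each spot an error, about 10.0% of the signal here, which comes to 0.20 to 0.25 on the log2 ratio of a member probe. Neither error holds the variation between cultures. The software error is nearly the same for most member probes, so multiples of it largely restate the size of a ratio or difference. Levels of different probes are not compared, because a probe's brightness depends on its sequence. In RNA from a whole culture, less RNA per cell and fewer cells of a type cannot be told apart.

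The 3 FOXA genes did not move together. FOXA1 had the most measurements, with 10 spots of its probe per array. Its signal on the DMSO array ran from 14969 to 16191, with a median of 15657, and on the HTE array from 7095 to 8296, with a median of 7913. Before scaling, every HTE spot was below every DMSO spot. How many other probes with replicate spots separate in this way was not counted, and the 10 spots repeat the same hybridisation on each array. The log2 ratio was -0.81 ± 0.05 (SD over 10 spots of 1 array pair, not over cultures), from -0.91 to -0.75 among single spots, which put FOXA1 at 57.0% of its DMSO level.

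FOXA2, which shares the forkhead DNA-binding domain with FOXA1 and overlaps with it in function, gave 13040.4 on the DMSO array and 12800.3 on the HTE array. These signals were close before scaling. After scaling, the log2 ratio was 0.14 with a software error of 0.20, and it was -0.03 without scaling. FOXA3, the third family member, which also serves glucose homeostasis in fasting, gave 1259 in DMSO and 966 in HTE. The log2 ratio of FOXA3 was -0.21, about as large as its software error of 0.21.

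The difference between 2 genes on the same array pair does not depend on a common scaling of the arrays. FOXA1 was lower than FOXA2 by 0.95 in log2 ratio, 3.31 times the combined software error of 0.29. It was lower than FOXA3 by 0.60, or 2.06 times that error. FOXA2 and FOXA3 differed by 0.35, or 1.22 times their error. The widest contrast within the family was thus that of FOXA1 with FOXA2. The gap between FOXA1 and FOXA3 was close to 2 errors and narrowed with quantile normalization, which gave -0.78 for FOXA1 and -0.26 for FOXA3.

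**Figure D1:**
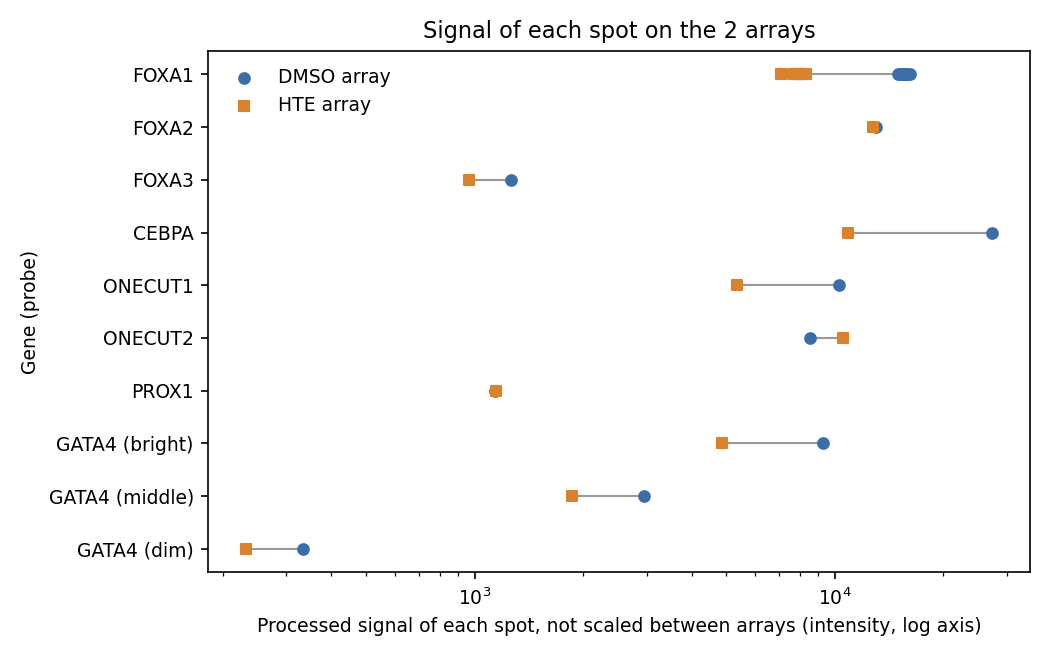
Processed signal of every member spot (x axis, intensity, log scale, not scaled between arrays) on the DMSO array (circles) and the HTE array (squares), with 1 row per probe and a grey line joining the means. The 10 FOXA1 spots form separate groups on the 2 arrays, while FOXA2 and PROX1 nearly coincide.

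CEBPA, which encodes the basic leucine zipper factor C/EBP alpha, was the only member past the 2-fold cutoff that the study used. Its single spot gave 27382 on the DMSO array and 10849 on the HTE array. The log2 ratio was -1.16, a 2.24-fold fall, or 5.71 times its software error of 0.20. Only 421 of the 23752 genes and unnamed transcripts bright enough on either array to be analysed had a lower ratio. Under every alternative other than spike-in scaling the CEBPA ratio stayed between -1.34 and -1.13, and with spike-in scaling it was -2.54.

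The Onecut paralogs went opposite ways. ONECUT1 (HNF6), which binds next to FOXA proteins in many liver genes, gave 10289 in DMSO and 5355 in HTE, a log2 ratio of -0.77. ONECUT2, a close paralog of it, gave 8521 in DMSO and 10561 in HTE, a log2 ratio of 0.48 that became -0.89 with spike-in scaling. The ratio of ONECUT1 was 3.78 times its software error and that of ONECUT2 was 2.36 times. ONECUT1 was below ONECUT2 by 1.25 in log2 ratio, 4.34 times the combined error of 0.29. Each rests on 1 spot per array.

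GATA4, a zinc finger factor of early endoderm and liver bud, had 3 probes to the same RefSeq transcript. The brightest gave 9264 in DMSO and 4853 in HTE, the middle one 2958 and 1864, and the dimmest 333 and 231. All 3 were lower on the HTE array, with log2 ratios of -0.76, -0.50 and -0.36 in that order. The brighter the probe, the lower was its ratio, with software errors of 0.20, 0.20 and 0.25 that overlap. The spots around these probes on the array had median ratios of 0.05, 0.07 and 0.03 in the same order.

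PROX1, a homeodomain repressor of bile acid and lipid genes in hepatocytes, gave 1138 in DMSO and 1146 in HTE. Its log2 ratio of 0.18 was below its software error of 0.21. Without scaling it was 0.01, with spike-in scaling -1.19. PROX1 and FOXA2 were thus the members whose signal hardly differed between the arrays before scaling.

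**Figure D2:**
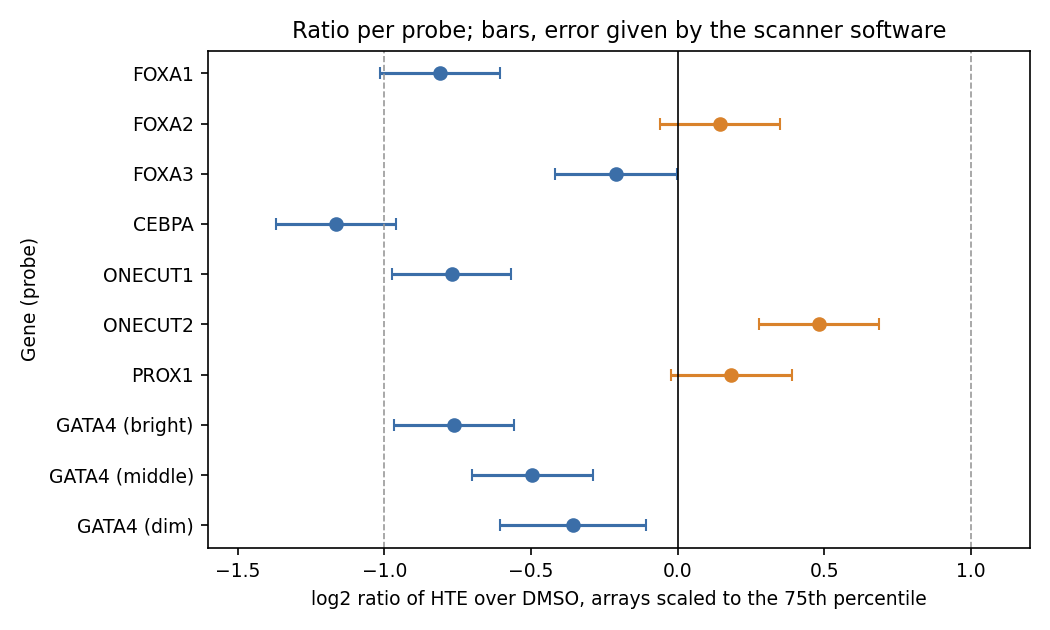
Log2 ratio of HTE over DMSO (x axis, arrays scaled to the 75th percentile) for each of the 10 member probes, with bars for the error that the scanner software gives and dashed lines at 2-fold. CEBPA (-1.16) is past 2-fold, FOXA1, ONECUT1 and the bright GATA4 probe lie between -0.81 and -0.76, and ONECUT2 is at 0.48. Without scaling FOXA2 moves below 0, and with spike-in scaling all members do.

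With each gene represented by its brightest probe, 5 of the 8 factors had a ratio below 0 and 3 a ratio above 0. Of all 23752 genes, 11631 were below 0 and 10849 above. These counts over all genes also stand beside those of the other lists given below. The median log2 ratio of the 8 factors was -0.49, beside 0.00 for all genes. At 2-fold, 1 of 8 was lower, against 3.03% of all genes, and 0 of 8 were higher, against 5.25%. With spike-in scaling 7 of 8 were 2-fold lower, against 18506 of all 23752 genes. At a cutoff of 1.5-fold, 4 of 8 were lower (CEBPA, FOXA1, ONECUT1 and GATA4), against 10.5% of all genes, and 0 of 8 were higher, against 12.4%. GATA4 passed that cutoff at its brightest probe only, the mean over its 3 probes being -0.54. FOXA1, ONECUT1 and GATA4 fell within 0.05 of each other, and 1285, 1436 and 1474 genes had lower ratios than they did. Of the 28 pairs among the 8 genes, 15 differed by more than 2 combined software errors. The share over all gene pairs was not computed, and the SD of the log2 ratio over all genes was 0.59. The count is thus not read as a trait of these genes. The widest gap was that of CEBPA below ONECUT2, 1.65 in log2 ratio. By value, CEBPA, FOXA1, ONECUT1 and GATA4 had the lowest ratios, FOXA2, PROX1 and ONECUT2 were above 0, and FOXA3 lay between. FOXA3 was within 2 combined software errors of ONECUT1 (1.93), GATA4 (1.90), FOXA2 (1.22) and PROX1 (1.34). It differed by more from CEBPA (3.28) and FOXA1 (2.06), which had lower ratios, and from ONECUT2 (2.38), which had a higher one. On each side of FOXA3, some genes thus lay within 2 errors of it and others beyond.

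Scaling to the median, no scaling and spike-in scaling each moved all 8 ratios by a common amount. Quantile normalization moved them by unlike amounts, FOXA1 to -0.78 and FOXA3 to -0.26. With no scaling, the all-gene median moved to -0.16, and FOXA2 turned to -0.03. With scaling to the E1A spike-in RNA, a control RNA added to each sample, the all-gene median moved to -1.36, and all 8 ratios were below 0. The 8 E1A probes well above background on both arrays were brighter on the HTE array by 0.45 to 1.57 in log2 signal before scaling, and the reason was not tested. Relative to the median of all genes, CEBPA was at -1.17, FOXA1 at -0.82, FOXA2 at 0.13 and ONECUT2 at 0.47 with the spike-in scaling, as they were without scaling. Each of these scalings subtracts a constant from an array, so the order of the genes is kept by arithmetic. Quantile normalization is not of this kind, and under it FOXA2 (0.18) lay above PROX1 (0.13). Among the relatives, forkhead genes, network factors, cofactors, noncoding RNAs and targets named in what follows, every gene with a ratio above 0, other than TDO2, is below 0 with spike-in scaling.

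**Figure D3:**
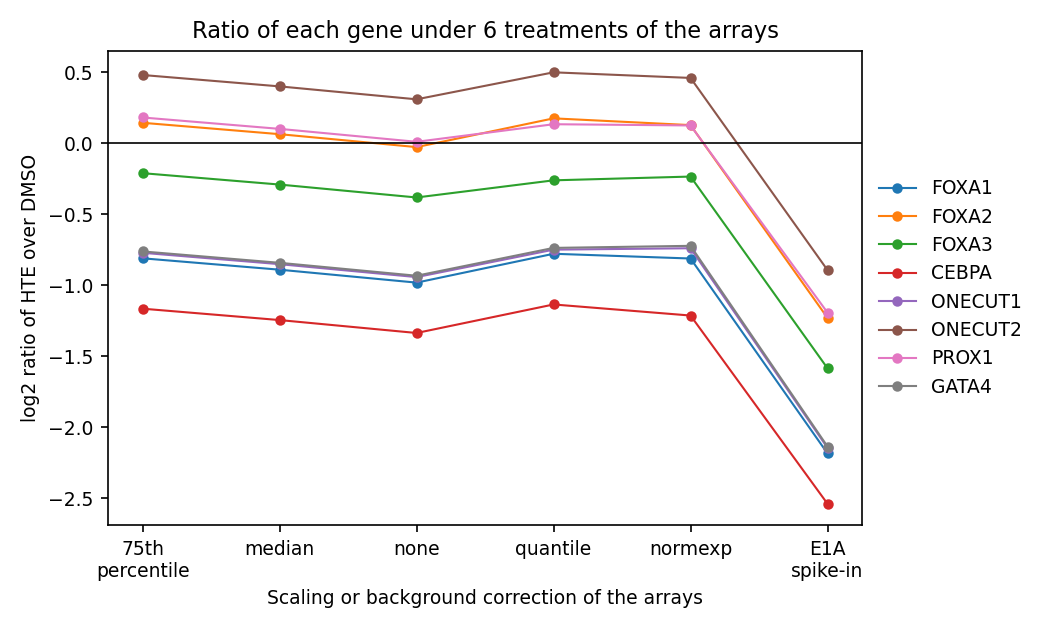
Log2 ratio of HTE over DMSO (y axis) of the 8 genes under 6 scalings or background corrections (x axis), with 1 line per gene. The lines run nearly parallel: CEBPA is lowest and ONECUT2 highest throughout, and all lie below 0 with the E1A spike-in.

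The closest relatives of the C/EBP, GATA, Onecut and Prospero members were taken as a list, of whose 12 genes 10 were well above background on both arrays. Of these, 5 had higher and 5 lower ratios, with a median of -0.01. DDIT3 (CHOP), a stress-induced C/EBP relative that blocks other C/EBP proteins, rose most, from 14953 to 31394 (log2 ratio of 1.24, and -0.13 with spike-in scaling). GATA2, a factor of blood and endothelial cells, fell most, from 4106 to 1456 (-1.32). CEBPB, the C/EBP factor of the acute phase response and of liver regeneration, gave 38298 in DMSO and 53497 in HTE (0.65, and below 0 with spike-in scaling), the opposite side from CEBPA. CEBPD had a ratio of -0.26, CEBPG of 0.16, CEBPE of -0.68, and ONECUT3 of -0.04. In the GATA family the ratio of GATA6, which overlaps with GATA4 in liver development, was 0.02, that of GATA3 -0.51 and that of GATA5 0.30. PROX2 and GATA1 were not well above background on either array.

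Among 41 forkhead genes other than FOXA, 28 were bright enough on either array to be analysed, with a median log2 ratio of 0.02. FOXO1, an insulin-restrained activator of gluconeogenesis genes, fell from 3386 to 1420 (-1.08). FOXM1, a driver of mitotic gene expression, fell from 13610 to 6014 (-1.01, and -0.99 with quantile normalization). No forkhead gene rose 2-fold at its brightest probe, and FOXO4 had the highest ratio (0.82, from 495 to 777, and below 0 with spike-in scaling). The brighter probe of FOXN2 was at 0.01 and the other at -1.61. FOXO6 was not analysed here, and 12 others were not well above background.

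Of 19 other factors of the liver network, 11 had lower and 8 higher ratios, with a median of -0.01. CREB3L3, a liver factor of fasting and the acute phase, rose from 19012 to 43684 (1.37, and -0.0021 with spike-in scaling), and no factor fell 2-fold (NR1H4 passes it without scaling, at -1.02, and with spike-in scaling, at -2.22). HNF4A, a nuclear receptor central to hepatocyte identity, gave 883 in DMSO and 859.7 in HTE (0.13, and -0.04 without scaling). The lowest ratios were those of NR1H4 (-0.85), the bile acid receptor FXR, and HHEX (-0.78), a homeobox factor of the liver bud. NR0B2, the small heterodimer partner that FXR induces, was higher (0.87, and below 0 with spike-in scaling). TBX3, a factor of hepatoblast growth, had ratios of -0.40 and -0.12 at its 2 probes. HNF4A thus lay nearer to 0 than CEBPA, FOXA1, ONECUT1 and GATA4 did.

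None of the 17 genes listed as cofactors of the 8 factors passed 1.5-fold at their brightest probe with the main scaling, and their median was -0.07. They include corepressors of the TLE, NCOR and HDAC3 type, the coactivators EP300 and CREBBP, and the Tribbles proteins and COP1, which mark C/EBP alpha for degradation. TLE1 was lowest (-0.33 at its brightest probe, but 0.47 and 0.18 at the others). TRIB2 was highest, at 0.56 from a dim signal of 166 in DMSO and 217 in HTE. The ratio of TRIB2 was 0.64 after subtracting neighbouring spots and -0.82 with spike-in scaling.

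Noncoding RNAs transcribed beside such genes were measured for 4 of 7 listed. CEBPA-DT, which runs divergently from the CEBPA promoter, gave 3375 in DMSO and 2763 in HTE at its brighter probe (-0.12) and had a ratio of 0.14 at the other. Both lay far from the -1.16 of CEBPA itself. LINC00261, the neighbour of FOXA2, was at -0.05 and -0.69 at its 2 probes, and PROX1-AS1, the antisense neighbour of PROX1, was at 0.59, or below 0 with spike-in scaling. Another 3 were not analysed here.

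Genes that these factors activate in liver were listed as targets, 34 in all, of which 29 could be analysed. Their median log2 ratio was -0.01, with 14 higher and 15 lower. IGFBP1, a fasting-induced secreted binding protein, rose from 28781 to 63734 (1.32, and -0.055 with spike-in scaling). TDO2, which degrades tryptophan, was not well above background in DMSO-treated cells and was at least 7.55-fold higher in HTE-treated cells (a log2 ratio of at least 2.92, and 1.70 with normexp background correction). Such a bound replaces the dim signal by the detection floor of its array, or keeps it where it is the higher value. Against these, HPX (hemopexin) fell from 926 to 367 (-1.16, and -0.91 with normexp background correction) and FGA (fibrinogen alpha chain) from 16423 to 6736 (-1.11, with -1.25 and -1.38 at 2 other probes). CYP8B1, a bile acid synthesis enzyme, was not well above background in HTE-treated cells and was at least 2.14-fold lower there, although normexp background correction gave -0.51.

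**Figure D4:**
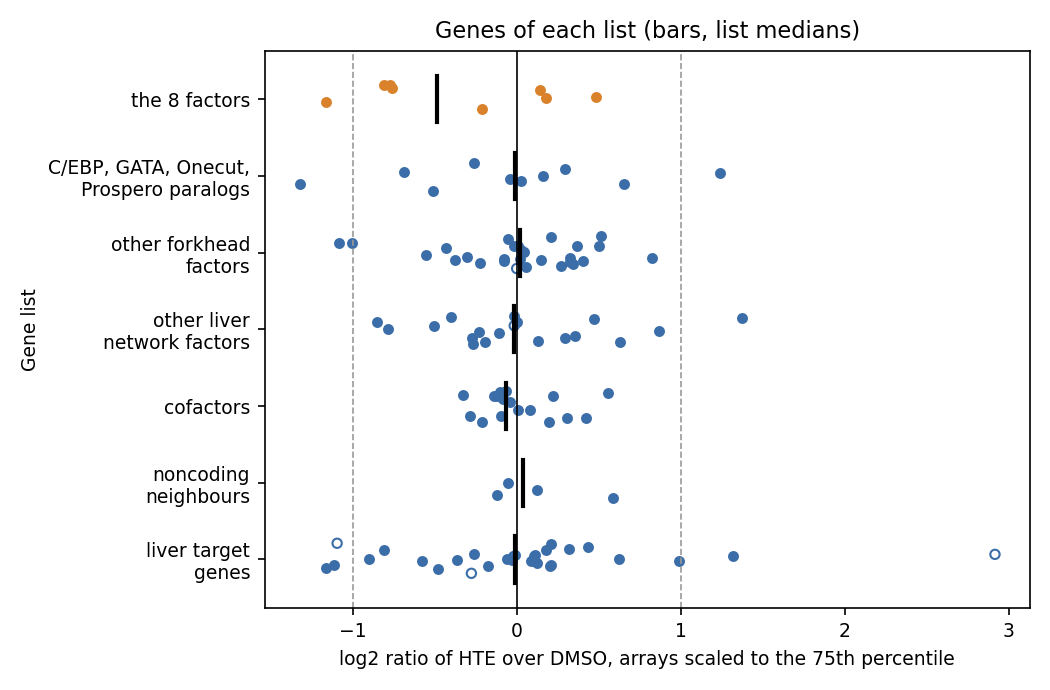
Log2 ratio of HTE over DMSO (x axis, arrays scaled to the 75th percentile) of every gene measured in each list (y axis), with open circles for ratios that are bounds, black bars for list medians and dashed lines at 2-fold. The median of the 8 factors is -0.49, and those of the other lists lie between -0.07 and 0.04. With spike-in scaling all these medians are below 0.

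The labelled cell type was checked against markers. A list's summed signal serves to compare the arrays within that list, and the sums of different lists are not comparable. All 10 hepatocyte markers, which are also in the list of targets, were well above background on both arrays, with a summed scaled signal of 221 in DMSO and 248 in HTE (in units of the 75th percentile) and log2 ratios from -0.36 to 0.44. Bile duct markers, which HepG2 cells are known to carry in part, were measured for 5 of 6 genes (66.4 and 78.2), CFTR being the exception. No pancreas marker of 5 was well above background, and the summed signals were 1.32 and 1.26 for 4 of 5 intestine markers, 0.20 and 0.28 for 3 of 4 lung markers, 0.25 and 0.086 for 2 of 5 endothelium markers, 1.61 and 2.06 for 2 of 5 macrophage markers, and 5.31 and 5.92 for 4 of 5 stellate cell markers. Most of the stellate cell sum came from ACTA2, with signals of 19921 in DMSO and 19844 in HTE. In DMSO, COL1A1 gave 454, PDGFRB 918 and DES 71.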

How the data were processed

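Total RNA of HepG2 cells was labelled with Cy3 and hybridised to Agilent SurePrint G3 human arrays, 1 per condition. The authors deposited the intensity values of each spot from Feature Extraction (version 11.5.1.1 per the file headers, 10.7 per the labels): a processed signal after background subtraction and spatial detrending, in which the lowest values are set to a small positive number, and which is not scaled between arrays.

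Here control spots and spots flagged as outliers were dropped, and log2 signals less each array's 75th percentile were averaged over the spots of a probe. Probes entered if 0.5 or more of their spots passed the software's test for well above background on either array (29680 probes, 23752 genes or unnamed transcripts, each represented by its brightest probe). A probe below that on 1 array was given a bound, the lowest signal well above background there or its own, whichever was higher. RefSeq accessions were matched without versions to the GRCh38.p14 gene table, which named 28174 of 50599 probes. The array design is on another build, so no gene or probe coordinates are given, and probe sequences were not used here.

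The 8 members and all lists were chosen with earlier results of these data known. The genes named from the other lists are those past 2-fold or else the largest rise and fall, and any gene of the paralog and liver network lists. FOXN2 and LINC00261 were named after their values were seen. Some genes of these lists are counted but not reported by name here. The alternatives were other scalings, normexp background correction (offset 50), other handling of dim probes, outlier spots and several probes, and cutoffs of 1.5-fold and 3-fold. Subtracting the median ratio of spots within 5 rows and columns was added after seeing the data. The scripts were tested on simulated data. The software was Python 3.11.15 (pandas 2.3.3, numpy 2.4.6, matplotlib 3.10.9) and, for normexp, R 4.3.3 (limma 3.58.1).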

Additional observations from a re-analysis of the deposited data

How the results depend on the processing

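The median log2 ratio of the 8 factors was -0.49, and it was -0.57 with scaling to the median, -0.66 without scaling, -1.86 with E1A spike-in scaling and -0.37 with the mean over all probes. The other alternatives moved it by no more than the SD among replicate spots. The number of factors at least 2-fold lower was 1, against 7 with E1A spike-in scaling, 4 at a cutoff of 1.5-fold and 0 at 3-fold. Of all genes, 3.03% were at least 2-fold lower, 18506 of 23752 with the spike-in scaling, and 10.5% at 1.5-fold. The share at 3-fold is not given. No factor was 2-fold higher under any alternative run. The sign of a single factor changed without scaling (1 gene, FOXA2) and with the spike-in (3 genes), and under no other alternative. Quantile normalization, the filters on dim probes and the outlier spots left all 8 within the SD among replicate spots, normexp and the mean over all probes moved 1 gene each, and the neighbouring spots 3. With the spike-in, DDIT3 (-0.13), CREB3L3 (-0.0021) and IGFBP1 (-0.055) turned below 0. The cause was not tested beyond the common shift that a scaling makes.

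Over all genes, 1248 were 2-fold higher and 720 lower. Without scaling these were 883 and 1209, with the spike-in 112 and 18506, with normexp 825 and 468, without a filter 2390 and 1868, and with a dim probe's own value 1341 and 1320. The files hold no gene names, so naming by the file was not run. No paired analysis was possible because neither condition has a second array. Each member except FOXA1 and GATA4 rests on 1 spot per array.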

Other observations

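Outside the lists of liver genes, 2 markers of other tissues passed 2-fold, and they were singled out after their values were seen. PECAM1, an adhesion molecule of endothelium and platelets, gave 804 on the DMSO array and 203 on the HTE array (a log2 ratio of -1.82), and its other probe was not well above background on the HTE array. VWF, another endothelial marker, gave 182 and 104 (-0.63), and CDH5, TEK and KDR, were not well above background on either array. SFTPC, a surfactant protein of the lung, gave 200.4 and 494 (1.47). The other lung markers did not share this, with SCGB1A1 at -0.67, NKX2-1 at 0.27 and SFTPB not well above background on either array.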
